A study of Homo sapiens with 21 samples.

Results

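ANGPT1, ANGPT2, TEK and TIE1, the genes of 2 secreted angiopoietins and of their 2 TIE receptors, were followed through the chromatin maps of 4 human melanoma cell lines. The genes were taken by name, and a region was counted for a gene when its midpoint lay in the gene body or within 50 kb of either end (hg38). All 4 were found among the 19974 protein-coding genes of the gene table, and 426 of the 1120474 listed regions met the rule, 118 for ANGPT1, 87 for ANGPT2, 112 for TEK and 109 for TIE1. The 426 regions merged into 109 separate sites, of which 49 were listed in a single library.

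The libraries with a region list were 1 of HA-tagged HOXD13 in A375 cells, 4 of K27ac in A375 cells with a hairpin (1 shH2, 1 shH3 and 2 shNTC replicates), and 10 that describe the lines. These 10 were ATAC and K27ac in 501mel, SKMEL-5, SKMEL-147 and A375-GFP, and CTCF in 501mel and SKMEL-5. ATAC marks open chromatin, K27ac is an acetylated histone residue found at active promoters and enhancers, and CTCF is an insulator protein. HOXD13 is a homeobox transcription factor, here tagged with HA, and it was mapped in 1 line; the series design speaks of HOXD13 silencing and overexpression. All cells were grown in culture for 72 h with or without 1 µg/ml doxycycline, which switches on the hairpin and overexpression constructs, and its use is not recorded sample by sample. What shH2 and shH3 target is not labelled, shNTC was taken to be a non-targeting hairpin, and A375-GFP to be A375 cells with GFP. Regions of 501mel ATAC are named siNTC, a term missing from that sample's label. Another 6 samples were not analysed here.

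Angiopoietins are growth factors of the blood vessel wall. ANGPT1, mostly made by cells around vessels, activates the receptor tyrosine kinase TEK (also called TIE2) on endothelial cells and keeps vessels quiet. ANGPT2, mostly made and stored by endothelial cells, competes with it at the same receptor and loosens vessels, although in some settings it activates TEK too. TIE1 resembles TEK, binds it on the cell surface and modulates its signal. Both receptors are known chiefly from endothelium, so melanoma cell lines without vessels show only what the tumour cells' own chromatin holds at these genes. Chromatin regions were measured, and no RNA or protein.

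The promoters of the receptors are printed because the start of TIE1 carried a region that was absent with both hairpins, while the start of TEK carried none in any ATAC or K27ac list. They are the 250 bases before the only listed start of TIE1 and before the first of the 2 listed starts of TEK, in the RefSeq table for GRCh38.p14, at chr9:27108975-27109224 and chr1:43300732-43300981, both on the plus strand, written 5′ to 3′. Capitals mark GGAA on either strand (written TTCC on the other), the core of sites for ETS factors, a family that includes regulators of endothelial genes.

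TEK promoter: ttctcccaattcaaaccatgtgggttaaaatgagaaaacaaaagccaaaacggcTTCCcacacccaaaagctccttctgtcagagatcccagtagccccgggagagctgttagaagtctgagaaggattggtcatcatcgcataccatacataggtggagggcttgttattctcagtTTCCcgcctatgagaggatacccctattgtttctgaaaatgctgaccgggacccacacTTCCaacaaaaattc
TIE1 promoter: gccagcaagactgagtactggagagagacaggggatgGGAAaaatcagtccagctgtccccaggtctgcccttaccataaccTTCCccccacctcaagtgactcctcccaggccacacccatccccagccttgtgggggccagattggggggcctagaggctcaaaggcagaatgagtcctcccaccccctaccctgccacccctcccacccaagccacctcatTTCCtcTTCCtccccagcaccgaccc

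The printed TEK sequence held the core 3 times and that of TIE1 4 times, against a median of 3 over 34961 promoters of the same length, of which 92.7% held it at least once. The 250 bases before the second start of TEK (chr9:27109200-27109449), which overlap the printed ones at their end and are not printed, held it 6 times. At least as many matches were found in 34.3% of promoters for TIE1, and for TEK in 55.1% at the first start and 9.16% at the second, so the order of the 2 genes depends on the start taken. The TIE1 sequence was richer in G and C, at 61.6%, and both TEK sequences poorer, at 46.4%, than the median promoter, at 58.4%. CAATAAA and TCGTAAA, searched on both strands as letters resembling the sites of posterior HOX proteins, occurred in 4.0% and 0.541% of windows reaching from 250 bases before to 50 bases after a start, and in no window of either receptor. CCGGAAGT, a longer ETS site that contains the core, and TATAAA were likewise not found in either. The table held no entry for ANGPT1 or ANGPT2.

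The lists differed in length, from 29176 regions for HOXD13-HA to 163102 for SKMEL-147 ATAC, and read depth is unknown. Among K27ac lists the hairpin libraries were short (43634 regions for shH2 and 51838 for shH3, against 85977 and 80242 for the shNTC replicates). Each group was 1 library except shNTC, so differences between lines and between hairpins have no replicate check. Of the 9 melanocytic marker genes 9 had K27ac at a start or gene end in 501mel and in SKMEL-5, 5 in each A375 list and 2 in SKMEL-147 (PAX3 and SOX10). Over the 15812 genes with a listed start the share, at starts only, was 23.5% in 501mel, 49.0% in SKMEL-5, 43.0% to 60.5% in the A375 lists and 21.6% in SKMEL-147. The markers stood close to that share in A375 and SKMEL-147 and above it in 501mel and SKMEL-5. Of the 9 melanocytic markers 6 had a listed start, as had 3 of the 8 endothelial ones, and the others were searched at both gene ends. Of the 8 endothelial markers 2 did in A375-GFP (EMCN and PECAM1) and 0 in the other 7 K27ac lists. The part of these differences in those between lines at the 4 genes was not tested.

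TEK had many open regions in SKMEL-147 and A375-GFP. It had 24 ATAC regions in SKMEL-147 and 19 in A375-GFP, placing it at the 93.3 and 94.4 percentile of protein-coding genes, against 9 in 501mel and 0 in SKMEL-5. Per length of its window it stood lower, at the 71.8 and 74.1 percentile. With the ATAC lists held to equal length TEK had 7 in SKMEL-147, 9 in A375-GFP, 5 in 501mel and 0 in SKMEL-5, so the lead of SKMEL-147 did not hold. ANGPT2 stood out for acetylation in SKMEL-147, with 22 K27ac regions covering 22.7 kb, the 97.7 percentile, and 16 with K27ac lists of equal length, against 8 in A375-GFP and 1 each in 501mel and SKMEL-5. With only regions of a −log10 q of at least 10, ANGPT2 had 5 in SKMEL-147 and 7 in A375-GFP, so the lead of SKMEL-147 did not hold there. ANGPT1 was acetylated in SKMEL-5, SKMEL-147 and A375-GFP (10, 10 and 13 regions) and had no K27ac region in 501mel. At equal length these counts were 10, 5 and 6, which made SKMEL-5 the highest. TIE1 had K27ac regions in every list, but most lay outside its gene body.

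**Figure D1:**
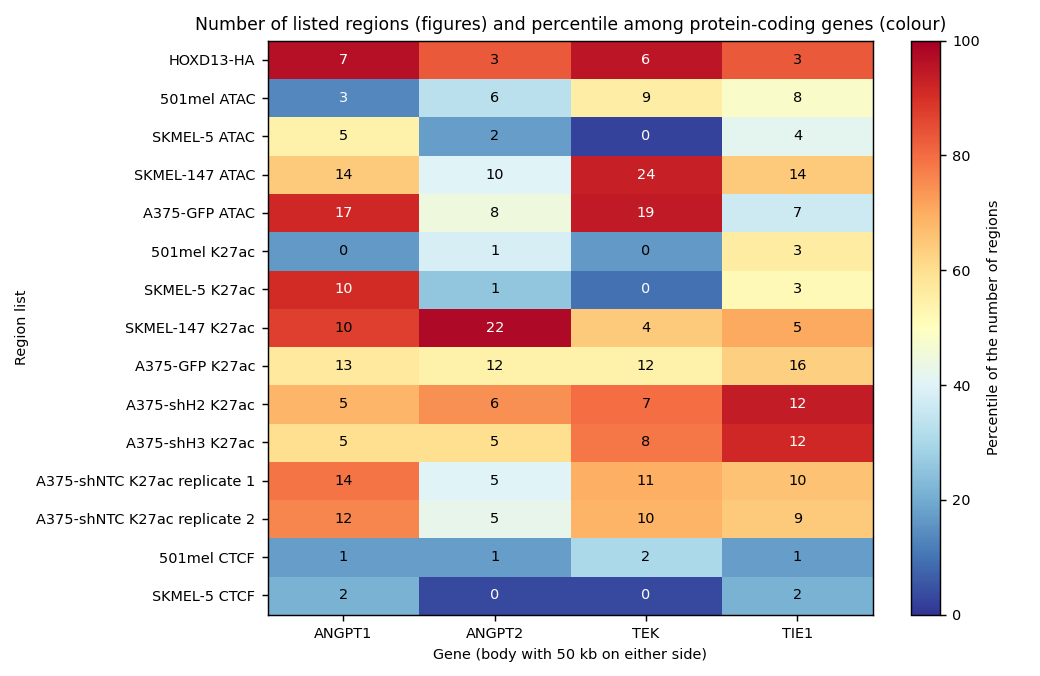
Number of listed regions in each gene body with 50 kb on either side (figures in the cells), by region list (rows) and gene (columns), coloured by the percentile of that number among all protein-coding genes. ANGPT2 reached 22 regions in the SKMEL-147 K27ac list, TEK 24 in the SKMEL-147 ATAC list, and SKMEL-5 listed 0 regions for TEK in all 3 of its libraries.

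A long gene collects more regions, and the window of ANGPT1 spans 348 kb. Per 100 kb, ANGPT2 still had 13.4 K27ac regions in SKMEL-147, against a median of 1.59 over all genes. TEK had 10.9 ATAC regions per 100 kb in SKMEL-147, against a median of 7.93, and 8.6 in A375-GFP, against 5.95. ANGPT1 had 4.02 ATAC regions per 100 kb in SKMEL-147 and 4.88 in A375-GFP, both below the medians of those lists, so ANGPT1 had many open sites but a low density of them.

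The starts of the 4 genes were mostly unmarked. TEK and ANGPT2 had no ATAC or K27ac region within 1 kb of the start in any of the 12 lists. Among the 15812 genes with a listed start, an ATAC region was found around it for 68.4% in 501mel, 61.9% in SKMEL-5, 74.7% in SKMEL-147 and 75.7% in A375-GFP. K27ac was found for 23.5% in 501mel, 49.0% in SKMEL-5, 21.6% in SKMEL-147 and 54.7% in A375-GFP, and for 43.0% (shH2), 54.4% (shH3), 60.5% and 59.2% (shNTC) in the hairpin series. The nearest region to the start of TEK was an ATAC region of SKMEL-147 at a distance of 2588 bp. The nearest to the start of ANGPT2 was a K27ac region of SKMEL-147 at 1599 bp. HOXD13-HA lay within 1 kb of the start of ANGPT1 alone among the 4 genes, against 4.05% of genes with a listed start.

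The start of ANGPT1 was open in A375-GFP (fold enrichment over the caller's background 4.91) and in SKMEL-147 (4.49). It was acetylated with shH3 (3.87) and in both shNTC replicates (5.0 and 4.63), and in SKMEL-5 (6.43) and SKMEL-147 (3.97), but not with shH2, in A375-GFP or in 501mel. The start of TIE1 was open in SKMEL-147 (6.21) and acetylated only in the 2 shNTC replicates (3.76 and 3.23). A fold ranks a region within its own list, and no change is read from folds of different lists.

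ANGPT1 had its widest chromatin site at the far end of the gene. A site 245 kb inside the gene (chr8:107251359-107254917) was open in all 4 lines, acetylated in SKMEL-5, SKMEL-147 and A375 and listed in 12 of the 15 libraries. In SKMEL-5 it was the strongest K27ac region of the gene, with a fold of 19.5 and a −log10 q of 58.0, placing it in the top 7.05% of that list by q. In 501mel the same site was open, with a fold of 12.2, and carried no K27ac region.

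A second ANGPT1 site 90.8 kb inside the gene was open in all 4 lines, with folds of 27.9 in 501mel, 10.8 in SKMEL-5, 30.6 in SKMEL-147 and 17.3 in A375-GFP. It was the strongest open region of the gene in 501mel, SKMEL-147 and A375-GFP. Of the 8 K27ac lists only that of SKMEL-5 held a region there (fold 4.15).

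CTCF, which often marks the borders of chromatin loops, was listed 1.91 kb inside the start of ANGPT1 in both lines mapped. The fold there was 23.7 in SKMEL-5 and 8.08 in 501mel, and the site was open in all 4 lines. A second CTCF region 219 kb inside ANGPT1 was listed in SKMEL-5.

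In SKMEL-147 and A375 the acetylation of ANGPT1 also reached upstream of its start. A site 3.41 kb upstream was listed in SKMEL-147, A375-GFP, shH2 and both shNTC replicates. The strongest K27ac region of ANGPT1 in SKMEL-147 lay 7.79 kb upstream, with a fold of 7.21. SKMEL-5, by contrast, had all 10 of its ANGPT1 K27ac regions inside the gene.

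**Figure D2:**
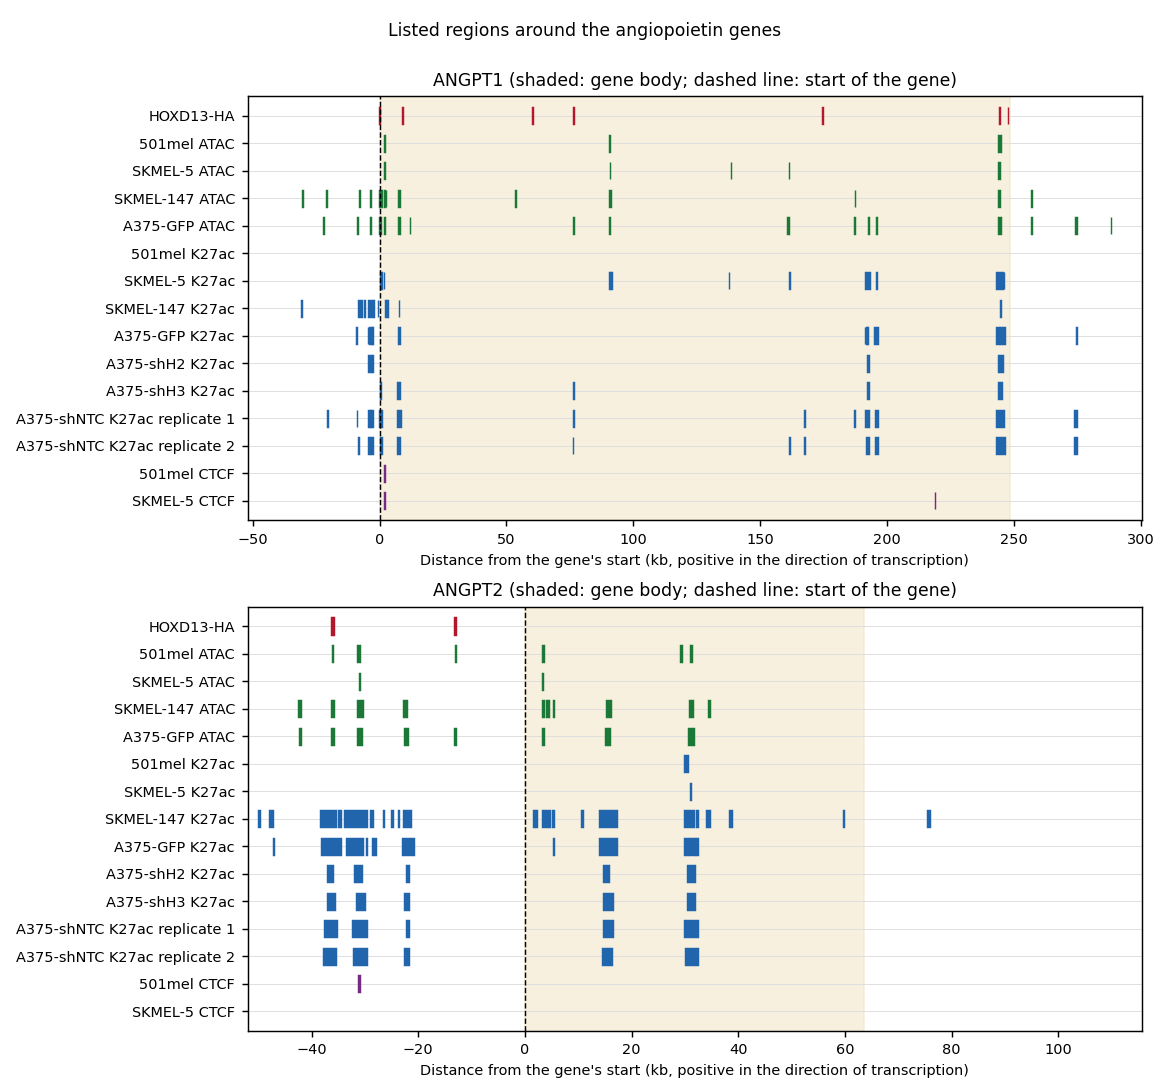
Listed regions around ANGPT1 (top) and ANGPT2 (bottom), by distance from the gene's start in kb; each bar is a region drawn to its width, and each row a library. The far end of ANGPT1 is marked in 12 libraries, 245 kb from the start, and SKMEL-147 K27ac holds 22 regions around ANGPT2 against 1 each in 501mel and SKMEL-5.

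ANGPT2 lies within the body of another gene, MCPH1, which encodes a chromosome condensation factor, and all its regions can belong to either gene. A site 31.1 kb inside ANGPT2 held K27ac regions of all 4 lines and of all 4 libraries of the hairpin series. It was merged from overlapping regions of all lists and was listed in 11 of the 15 libraries. It held the only ANGPT2 K27ac region of 501mel (fold 4.97) and the only one of SKMEL-5 (4.37), which did not overlap each other. In those lines the gene's acetylation was thus confined to 1 region each, covering 0.79 kb in 501mel and 0.237 kb in SKMEL-5.

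SKMEL-147 and A375 shared further acetylated and open ANGPT2 sites, 15.6 kb inside the gene and 22.0, 31.8 and 36.5 kb upstream of it. In SKMEL-147 the K27ac regions there had folds of 9.37 at 15.6 kb, 4.69 at 22.0 kb, 14.7 at 31.8 kb and up to 16.2 at 36.5 kb. The region at 31.8 kb spanned 4290 bp and stood in the top 1.18% of the SKMEL-147 list by q. In A375-GFP the strongest K27ac region was the site 15.6 kb inside the gene (fold 19.6, top 1.32%).

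The upstream ANGPT2 site at 31.8 kb was open in all 4 lines, and in 501mel it carried the gene's only CTCF region (fold 4.88). Open chromatin 3.97 kb inside the gene was shared by all 4 lines too and was the strongest ATAC region of ANGPT2 in 501mel (fold 20.3) and in SKMEL-5 (5.8). It had K27ac in SKMEL-147 alone (fold 3.28). The 2 lines with little ANGPT2 acetylation therefore still had open chromatin near it.

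TEK was acetylated in A375 and SKMEL-147 and had no K27ac region in 501mel or SKMEL-5. Sites listed in SKMEL-147, A375-GFP and all 4 libraries of the hairpin series lay 14.0 kb upstream, and 16.4 and 85.4 kb inside the gene. A further shared site, 9.69 kb inside, was acetylated in SKMEL-147 and in both shNTC replicates, but not in A375-GFP or with shH2 or shH3. At 14.0 kb upstream the ATAC fold was 25.3 in SKMEL-147 and 16.0 in A375-GFP, and the K27ac fold 3.92 in SKMEL-147 and 4.43 in A375-GFP. At 16.4 kb inside, the strongest site of TEK by ATAC q in both lines, the ATAC fold was 23.4 in SKMEL-147 and 13.4 in A375-GFP.

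Sites acetylated in A375-GFP and the hairpin series but in no other line lay 22.5 kb upstream and 42.1 and 45.9 kb inside the gene, and each was also open in SKMEL-147. The site at 22.5 kb was the strongest K27ac region of TEK in both shNTC replicates, with folds of 18.0 and 18.4. In 501mel, TEK had 9 open regions without acetylation, the strongest 39.0 kb upstream (fold 20.6). CTCF was listed in 501mel 139 and 167 kb from the start of TEK, beyond its far end.

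**Figure D3:**
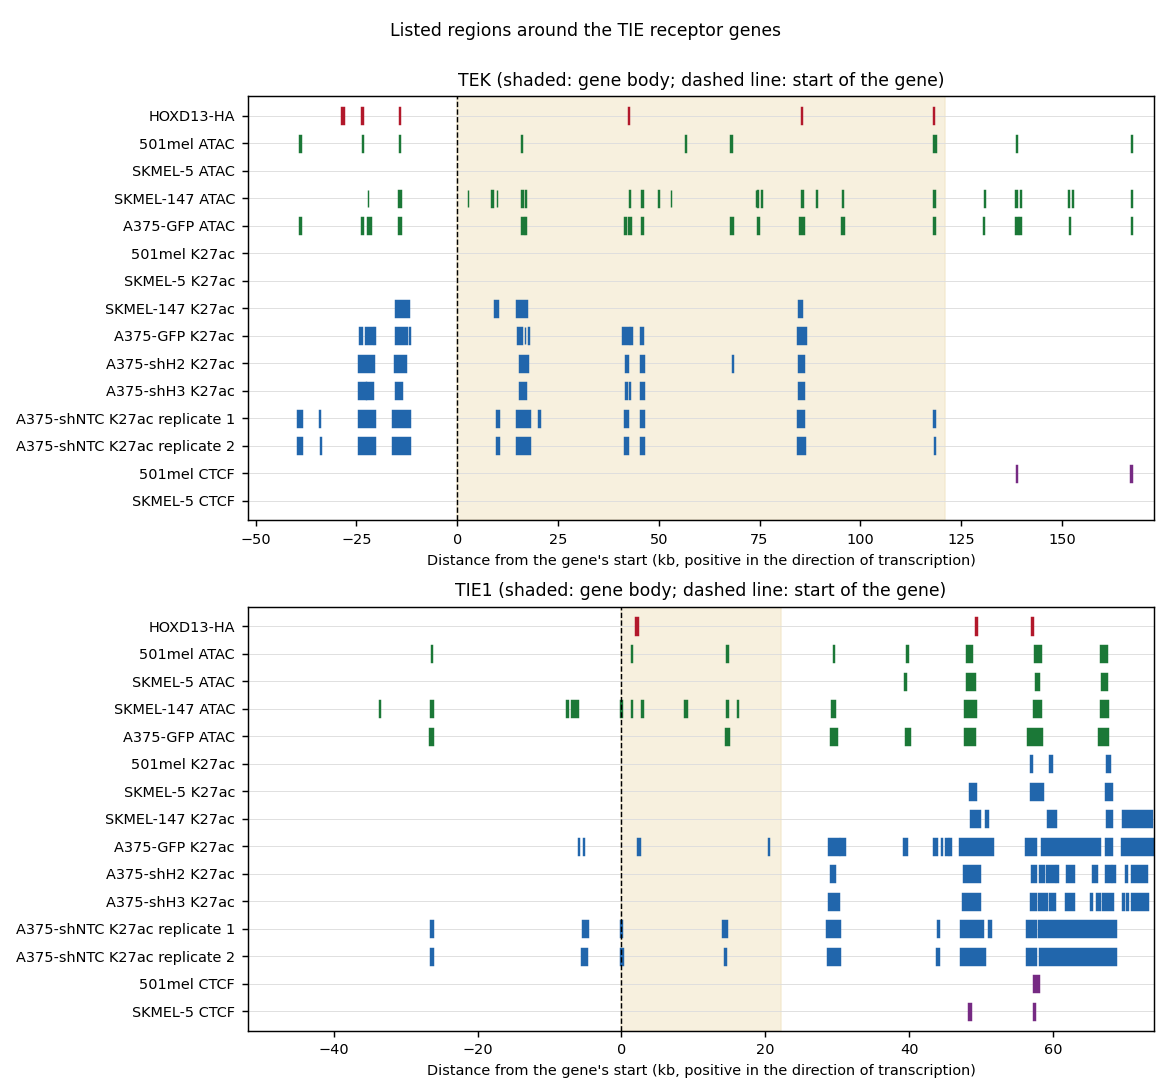
Listed regions around TEK (top) and TIE1 (bottom), by distance from the gene's start in kb; each bar is a region drawn to its width, and each row a library. TEK has no region in the 3 SKMEL-5 libraries, and most TIE1 K27ac regions lie beyond its far end.

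TIE1 is the shortest of the 4 genes, at 22.1 kb, and its window takes in other genes, among them CDC20, which encodes a cell division activator, and ELOVL1, a fatty acid elongase. Outside the body of TIE1 lay 12 of the 12 K27ac regions with shH2 and 12 of 12 with shH3, against 9 of 10 and 7 of 9 in the shNTC replicates. In the lines, 3 of 3 lay outside it in 501mel, 3 of 3 in SKMEL-5, 5 of 5 in SKMEL-147 and 14 of 16 in A375-GFP. Counts for the window of TIE1 thus mostly describe its surroundings.

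By midpoint inside the body of TIE1, no K27ac region was listed with shH2, with shH3, or in 501mel, SKMEL-5 or SKMEL-147, while the shNTC replicates had 1 and 2 and A375-GFP had 2. The highest fold among them was 5.21. Open chromatin inside TIE1 was most frequent in SKMEL-147, with 5 regions and a fold of up to 12.1, against 2 in 501mel, 1 in A375-GFP and 0 in SKMEL-5. The gene itself therefore held at most 2 K27ac regions in any list, while its open regions ranged from 0 to 5.

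SKMEL-5 listed no region of any kind in the window of TEK, while 95.7% of genes had an ATAC region there, 81.2% a K27ac region and 93.5% a CTCF region in that line. The empty stretch was far longer than the gene. Between the nearest K27ac regions of SKMEL-5 on either side of the start of TEK lay 7.45 Mb (chr9:21335629-28781697), and only 3 gaps in that list were longer. The CTCF list of SKMEL-5 had a gap of 6.29 Mb around the same start, also with 3 longer gaps. Its ATAC list had a gap of 1.29 Mb, with 31 longer gaps.

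Within the 7.45 Mb, SKMEL-5 had 7 ATAC and 8 CTCF regions, against 139 ATAC, 64 K27ac and 35 CTCF regions in 501mel. SKMEL-147 listed 319 ATAC and 157 K27ac regions there, and A375-GFP 222 and 172. The K27ac regions of 501mel lay in clusters and left several Mb upstream of TEK empty. The stretch also holds CDKN2A, a tumour suppressor gene. The absence of K27ac at TEK was thus shared with 7.45 Mb of the short arm of chromosome 9 in SKMEL-5. DNA copy number, which the lists do not give, was not tested.

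**Figure D4:**
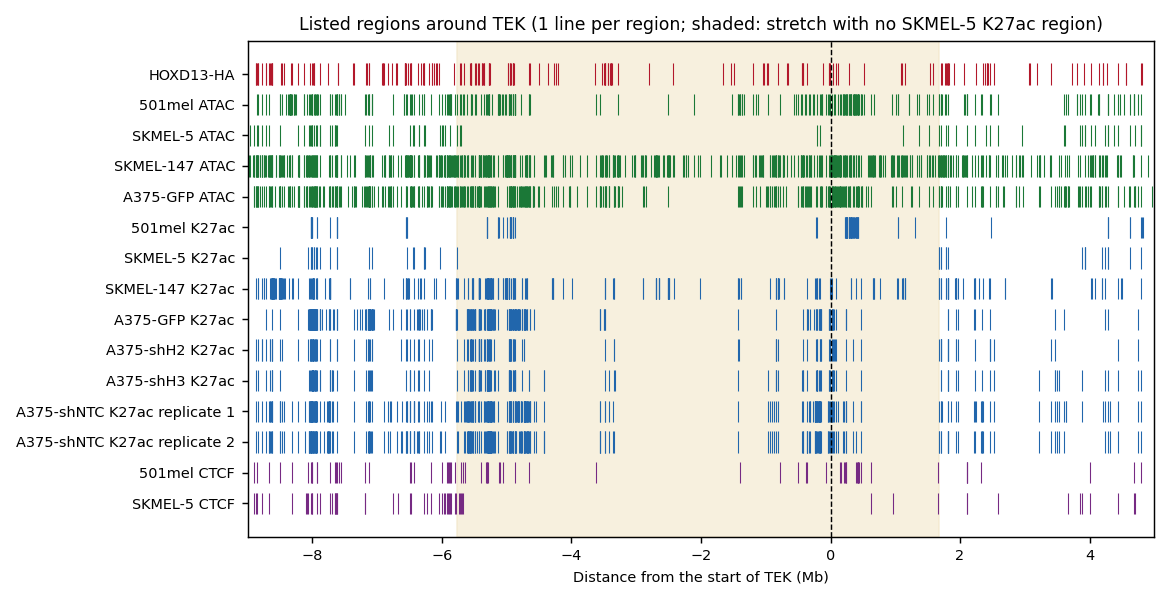
Listed regions by distance from the start of TEK in Mb, 1 line per region and 1 row per library; the shaded stretch of 7.45 Mb holds no SKMEL-5 K27ac region. SKMEL-5 ATAC and CTCF rows are also nearly empty there, with 7 and 8 regions, while SKMEL-147 and A375-GFP are densely marked. The 501mel rows lie between, with 64 K27ac regions in clusters. Several Mb upstream of TEK hold no 501mel K27ac region and few 501mel ATAC or CTCF regions.

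HOXD13-HA was listed near all 4 genes, against 60.2% of all protein-coding genes. ANGPT1 had 7 regions, ANGPT2 3, TEK 6 and TIE1 3, against a median of 1 over all genes. Per 100 kb these were 2.01, 1.83, 2.72 and 2.46 regions, against a median of 0.731, at the 87.8, 83.3, 93.3 and 91.5 percentile. Of the 19 regions 10 lay inside a gene, and their folds ran from 1.84 to 9.16 with a median of 3.86, against 3.93 over the whole list. The genes therefore had more HOXD13-HA regions than the median gene, at an ordinary strength.

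In ANGPT1 the strongest HOXD13-HA region lay 76.4 kb inside the gene (chr8:107421210-107421755), with a fold of 7.92 and a −log10 q of 23.1, in the top 4.8% of the list by fold. It overlapped open chromatin in A375-GFP and K27ac in shH3 and both shNTC replicates, but no region of another line. Another, with a fold of 2.81, lay in the site at the far end of the gene that is open in all 4 lines. The region at the start was among the weakest, with a fold of 2.49. The other 4, at 8.95, 60.4, 175 and 248 kb, with folds of 3.49 to 5.5, overlapped no region of any other list.

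In ANGPT2 all 3 HOXD13-HA regions lay upstream of the gene, in MCPH1. The strongest was open in A375-GFP and in 501mel but carried no K27ac in any list. A pair 35.9 and 36.3 kb upstream, with folds of 3.16 and 4.15, lay in the acetylated site that SKMEL-147 and A375 share.

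In TEK, HOXD13-HA overlapped A375-GFP K27ac at 23.6 and 14.3 kb upstream and 42.5 and 85.4 kb inside, each also open in A375-GFP. By q the one at 85.4 kb was strongest, with a −log10 q of 21.3 and a fold of 4.67. The TEK region with the highest fold, 28.4 kb upstream, overlapped none of the other lists. The region at 118 kb (fold 2.31) overlapped open chromatin in 3 lines and a weak K27ac region of shNTC replicate 1.

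In TIE1 the strongest HOXD13-HA region lay 2.1 kb inside the gene, outside open chromatin in all 4 ATAC lists, and overlapped a K27ac region of A375-GFP. The other 2, at 49.3 and 57.1 kb with folds of 2.89 and 3.86, lay at acetylated sites beyond its far end.

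Open chromatin of A375-GFP overlapped 12 of the 19 HOXD13-HA regions (63.2%, 95% Wilson interval 41.0 to 80.9), against 34.1% of the whole HOXD13-HA list and 34.8% of its 20350 regions in or near a protein-coding gene. A375-GFP K27ac overlapped 9 of 19 (47.4%, 27.3 to 68.3), against 22.2% of the list and 25.2% of the regions near genes. K27ac of both shNTC replicates overlapped 9 of 19 as well, against 24.9% of the list. Neither A375-GFP list overlapped 5 of 19 (26.3%, 11.8 to 48.8), against 58.5% of the list and 56.3% of the regions near genes. The A375-GFP lists come from cells labelled GFP, not from the HOXD13-HA cells, and regions of 1 site are not independent.

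Both hairpins left less acetylated length at all 4 genes than either shNTC replicate, as they did at 94.8% of the 17548 genes with K27ac in both replicates. ANGPT1 had 3.67 kb with shH2 and 3.83 kb with shH3, against 12.1 and 12.1 kb with shNTC. ANGPT2 had 5.82 and 7.71 kb, against 10.2 and 10.3 kb with shNTC. TEK had 12.9 and 10.2 kb, against 19.4 and 18.8 kb with shNTC. In none of these did the hairpins reach the shNTC values, and the same held for TIE1, with 11.5 and 14.0 kb, against 20.4 and 19.8 kb with shNTC.

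Relative to the shNTC mean, ANGPT1 kept 30.3% of its acetylated length with shH2 and 31.6% with shH3, close to the median gene with shH2 (29.8%) and below it with shH3 (45.3%). ANGPT2 kept 56.7% and 75.2%, TEK 67.3% and 53.5%, and TIE1 57.3% and 69.4%. These 3 genes thus kept more than the median gene with each hairpin, from the 65.3 percentile (TEK, shH3) to the 96.1 percentile (TEK, shH2). The TIE1 shares are raised by an edge of its window. A site 71.7 kb from its start counted regions of both hairpins and none of shNTC. Those hairpin regions did overlap shNTC regions, whose midpoints lay outside the window, so only the hairpin length was counted there.

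The position of a gene against the background depended on which regions were counted, and on whether the median gene or all regions together served as background. Over all regions of the full lists the share kept was 36.4% with shH2 and 48.8% with shH3. ANGPT1 lay below both values and the other genes above both. With all 4 lists held to 43634 regions, ANGPT1 kept 39.0% with shH2 and 40.8% with shH3, against 46.1% and 57.9% over all regions, and TEK kept 55.8% with shH3, below that share too. With only regions of a −log10 q of at least 10, ANGPT1 kept 0.0% with shH2 and 51.1% with shH3, against 29.6% and 49.7% over all regions. ANGPT2 then kept 15.8% with shH2, below the share of all regions, and 81.0% with shH3, and TIE1 30.1% and 64.3%. TEK kept 67.9% and 59.4%. ANGPT1 had the lowest share of the 4 genes with each hairpin in all 3 settings.

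**Figure D5:**
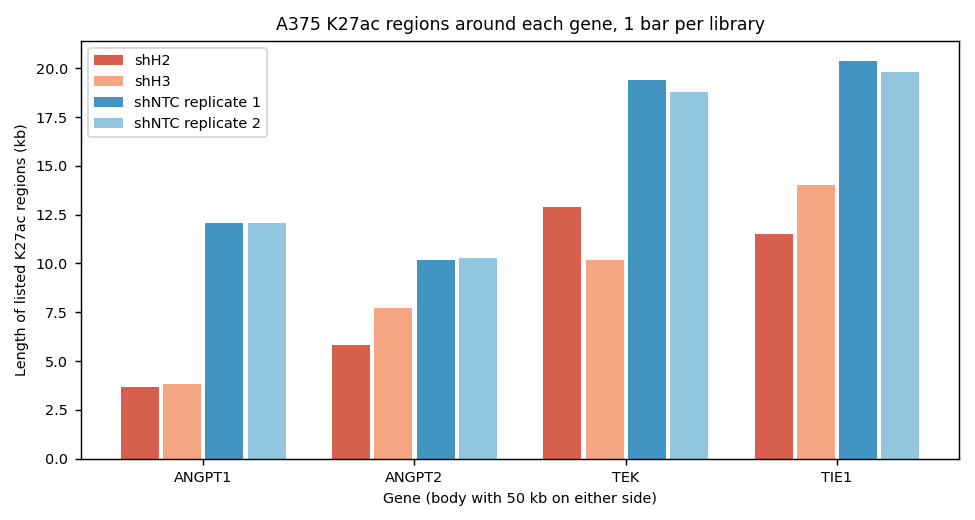
Length of listed K27ac regions in kb in each gene body with 50 kb on either side, 1 bar per A375 library, with the hairpins shH2 and shH3 left of the 2 shNTC replicates. In every gene both hairpins lie below both replicates, and relative to shNTC the hairpins are lowest for ANGPT1 (3.67 and 3.83 kb against 12.1 and 12.1 kb). For TIE1 a site at the window's edge is counted for the hairpins only.

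By number, the 4 genes had 30 K27ac regions with shH2 and 30 with shH3, against 40 and 36 in the shNTC replicates, a mean difference of −8 set against an SD of 2.83 (n = 2 replicates). With lists of equal length the difference turned to 2.5, and TIE1 then had 12 regions with shH2 and 10 with shH3, against 7 and 5 with shNTC. The TIE1 count with shH2 takes in the site at the window's edge, where no shNTC region was counted. A count of regions therefore gave no stable direction here, unlike covered length.

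A region was called lost when both shNTC replicates listed it and neither hairpin did. Of the 34 regions shared by the shNTC replicates 12 were lost (35.3%, 21.5 to 52.1), against 37.1% of all shared regions. ANGPT1 lost 3 of 10, ANGPT2 0 of 5 (Wilson interval up to 43.4%), TEK 4 of 10 and TIE1 5 of 9. The share near the 4 genes was thus at the background, and with lists of equal length it was 3 of 23, against 16.4% of all. No region was gained, that is, listed with both hairpins and in neither replicate, against 1.85% of all regions shared by the hairpins.

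In ANGPT1 the lost regions lay 167 and 196 kb inside the gene and 274 kb from the start, beyond the far end. The strongest, at 196 kb, had shNTC folds of 5.63 and 5.6. The far-end site at 245 kb was kept with both hairpins. The hairpins differed around the start: the region 7.72 kb inside and that at the start itself were listed with shH3 and not shH2, and those 3.07 and 4.19 kb upstream with shH2 and not shH3.

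In TEK the lost regions lay 39.1 and 34.0 kb upstream and 9.96 and 118 kb inside. The one at 39.1 kb was the strongest, with a −log10 q of up to 11.1, and the one at 118 kb overlapped the weakest HOXD13-HA region by q of the 4 genes. All 6 kept TEK regions were listed with both hairpins, including those at 22.5, 14.0 and 85.2 kb that overlap HOXD13-HA.

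At TIE1 the lost regions lay 26.5 and 5.1 kb upstream, at the start, 14.3 kb inside and 44.0 kb from the start. The region at the start was weak, with a −log10 q of 3.58 and 2.15 in the shNTC replicates, and it covered most of the promoter printed above. Those at the start and at 14.3 kb were all the K27ac that the shNTC replicates shared across the gene body. The 4 kept regions lay 29.4 kb or more from the start.

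Kept and lost regions differed in strength, near the 4 genes as over all regions. The 22 kept regions had a median width of 2083.5 bp and a median −log10 q of 26.8, against 573 bp and 5.43 for the 12 lost. Over all regions these medians were 1583 bp and 17.1 for the 41117 kept, against 732 bp and 5.03 for the 24220 lost. Open chromatin of A375-GFP overlapped 21 of 22 kept and 6 of 12 lost regions, and HOXD13-HA 9 of 22 kept and 1 of 12 lost. Over all regions open chromatin overlapped 91.7% of kept and 42.5% of lost regions, and HOXD13-HA 14.2% and 5.78%. The contrast between kept and lost was thus general, and whether it was larger at these genes was not tested. Of the kept regions 21 of 22 covered less with shH2 than in either replicate, counting 3 absent ones as 0, and 20 of 22 did with shH3, against 92.4% and 81.2% of all kept regions.

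A list of 22 further genes of the pathway gave the surroundings of these results. HOXD13-HA lay in or near 16 of the 22, a share to set against the 60.2% of all genes. The highest folds were at SVEP1 (10.4), a matrix protein reported to bind TIE1, at ITGA5 (8.2), an integrin subunit, at PTPRB (7.35), the phosphatase VE-PTP that acts on TEK, and at RASA1 (7.06), a RAS regulator. A lost K27ac region lay near 19 of the 22, against 70.7% of all genes, and a gained one near 0, against 2.99%.

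Of the 8 endothelial markers 6 had HOXD13-HA nearby, led by CLDN5, a tight junction protein (10.6), and KDR, the main VEGF receptor (7.16), and 8 had a lost region. Of the 9 melanocytic markers 6 had HOXD13-HA nearby and 5 a lost region. Of the 12 housekeeping genes 6 had HOXD13-HA nearby and 8 a lost region. Over all genes 60.2% had HOXD13-HA nearby and 70.7% a lost region. The counts of the marker and housekeeping lists are small, and none was tested.

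Across the 15 lists, genes closest to each member in the percentile of its region counts were sought, only on chromosomes other than its own. The genes found were different for each member. They were DYRK2, RBM47 and POLK for ANGPT1, with a mean difference of 9.05 to 10.1 percentile points, and RGS1, SFR1 and NRIP1 for ANGPT2, with 6.14 to 7.69. For TEK they were ERG, which encodes an ETS factor of endothelial cells, PDE8B and NUAK1, with 10.4 to 10.6, and for TIE1 TIMM8B, SDHD and NCK1, with 7.46 to 8.22. TIMM8B and SDHD both lie on chromosome 11 and had the same difference, 7.46. The median gene differed by 29.4 to 35.6 points, and the 4 members differed from each other by 17.8 to 22.5 points, so no member was among those closest to another.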

How the data were processed

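The 15 deposited region lists of 21 samples were used. The submitters' processing notes name hg38 and the tools MACS2, Bowtie2, Trim Galore, deepTools and SAMtools; versions, settings and control libraries are not given in the sources used here, nor which libraries are ChIP-seq or CUT&Tag. Each list holds, as deposited by the authors, a score, a fold enrichment (a ratio to the caller's background), and −log10 p and −log10 q values. They served to rank or filter regions inside 1 list at a time. There are no read counts, so depth is unknown. Of the 15 lists 5 (the hairpins, shNTC and A375-GFP ATAC) also held regions on alternative sequence copies, including 10 to 89 from chromosome 8, and 10 held none; whether any copies the 4 genes was not determined.

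Regions on autosomes and X were kept and counted by midpoint with Python 3.11.15, pandas 2.3.3 and NumPy 2.4.6; overlap meant at least 1 bp. Wilson intervals (95%, statsmodels 0.14.6) cover counting error only. Gene positions and promoters are RefSeq's for GRCh38.p14. Starts came from its promoter table for 15812 genes, and background shares at starts cover only these. For other listed genes, and for ANGPT1 and ANGPT2, both gene ends were searched. Distances for ANGPT1 and ANGPT2 were taken from the upper end (minus strand, general knowledge). Each list called at the start of ANGPT1 had a region within 1 kb of that end. With 1 library per group, and replicates of shNTC only, which nothing says are separate cultures, no test was run. Counting was checked on simulated data. Named were the members, genes in their windows, the strongest listed genes, the 3 most alike genes, and per list the strongest, HOXD13-HA and lost regions; other sites, the GGAA search and the genes-only background were chosen after values were seen. Members and lists were chosen with earlier results of these data known.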

Additional observations from a re-analysis of the deposited data

How the results depend on the processing

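With 10 kb on either side instead of 50 kb, the 4 genes had 11 HOXD13-HA, 93 ATAC, 65 K27ac (lines) and 3 CTCF regions and 7 lost regions, against 19, 150, 112, 9 and 12. The 7 lost were of 21 shared by the shNTC replicates, against 37.1% of all. With 100 kb there were 23 CTCF regions, and the hairpins' mean number of K27ac regions minus that of shNTC was −13.5, against −8. With a −log10 q of at least 10 there were 5 HOXD13-HA, 36 K27ac and 2 CTCF regions, the hairpin difference was −3, 1 region was lost (of 16, against 32.2% of all) and 0 genes had K27ac at the start, against 2. With lists of equal length there were 73 ATAC and 73 K27ac regions, and the difference reversed to 2.5. Lost regions were then 3 (of 23, against 16.4% of all). At the start 1 gene had K27ac and 0 had ATAC, against 2 and 2. Leaving out shNTC replicate 1 gave a difference of −6 and 14 lost regions (of 36, against 45.5% of all). Leaving out replicate 2 gave −10 and 18 lost regions (of 40, against 48.4% of all). With shH2 alone 1 region of 30 was gained, in TEK, against 4.39% of all. With shH3 alone it was 1 of 30, also in TEK, against 8.2% of all, and with both hairpins 0. Of 54 alternative values 33 were counted as near the reported one, which allowed differences as large as 18 lost regions against 12. For the hairpin difference, near meant within the SD of the shNTC replicates. Among the 33 was HOXD13-HA near 4 genes (3 at 10 kb). Covered length, added after seeing the data, was lower with both hairpins at each gene with lists of equal length too. No paired analysis was possible because only shNTC carries replicate numbers. A region missing from a list may lie below the caller's threshold, and the causes of these shifts were not tested.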

Other observations

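Of the 109 sites around the 4 genes 7 were open in all 4 lines, 3 at ANGPT1, 2 at ANGPT2, 2 at TIE1 and 0 at TEK. Only 2 were acetylated in all 4 lines, the ANGPT2 site 31.1 kb inside the gene and a site around CDC20 and ELOVL1 in the window of TIE1, which was listed in all 15 libraries. At TEK, SKMEL-5 listed nothing and 501mel listed no K27ac region.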
